A study of Mus musculus with 30 samples.

Results

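The D cyclins and the proteins that hold them in check were followed in sorted mouse mammary gland (MG) epithelium. The 10 genes taken were those coding for cyclins D1, D2 and D3 (Ccnd1, Ccnd2, Ccnd3), their kinases (Cdk4, Cdk6), the Cip/Kip inhibitors (Cdkn1a, Cdkn1b, Cdkn1c), the retinoblastoma protein (Rb1) and p53 (Trp53). They were chosen by name, and all 10 were found among the 11137 genes of the deposited table. Each was described across 8 groups defined by lineage, reproductive stage and genotype, in 30 libraries.

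D cyclins bind Cdk4 or Cdk6, and the active complex phosphorylates the retinoblastoma protein, which releases E2F factors and lets a cell pass from G1 into S phase. Cdkn1a (p21), Cdkn1b (p27) and Cdkn1c (p57) restrain cyclin-dependent kinases, and p53 is the best known activator of Cdkn1a. In the MG, cyclin D1 is known for its requirement in alveolar growth during pregnancy. Rank, the receptor of Rankl, passes on the mitogenic signal of progesterone to neighbouring epithelial cells.

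Libraries came from luminal and basal cells of female mice. Control K8imTmG mice carry the alleles K8rta, TETO CRE and mTmG, and K8iΔRank mice carry in addition RANK fl/fl, so that Cre made in Krt8-expressing luminal cells removes Rank there and turns on GFP. Basal cells are by design not a target of this Cre, so that K8iΔRank basal libraries come from cells meant to keep Rank. Cells were sorted by CD24 and CD49f, and luminal cells also by GFP. Mice of both genotypes received doxycycline at 1 mg/ml between 3 and 8 weeks of age per the labels, and were collected as virgins or, age-matched, as parous animals after involution. Per the paper, control mothers nursed until their pups were removed, whereas K8iΔRank mothers failed to lactate and then rested in place of involution. Nursing history thus cannot be told apart from genotype in parous mice, nor in the comparisons that use them. Luminal libraries numbered 3 virgin K8imTmG, 3 virgin K8iΔRank, 5 parous K8imTmG and 4 parous K8iΔRank, and basal libraries 3, 4, 4 and 4 in the same order. They came from 17 mice, each named here by its number, and 13 of them gave both lineages. Values are normalized counts from 3′ mRNA sequencing, that is, molecules counted at the transcript end and divided by a size factor of the library.

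The labels of lineage were matched by the markers. Summed counts of 8 basal markers were 9923 to 16351 in basal libraries and 57.5 to 312 in luminal libraries, and those of 10 luminal markers 601 to 1784 and 4140.1 to 18166. Markers of 6 fibroblast genes summed to 550.2 to 1003 in basal and 98.4 to 957 in luminal libraries, and 4 endothelial markers to 39.8 to 755 and 5.04 to 37.8. The 4 immune markers in the table, of 8 listed, summed to 43.4 to 169 and 9.59 to 42.3, and 2 erythroid markers to 0 to 157 and 0 to 89.6. Fabp4, the 1 adipocyte marker of 4 in the table, was 111 to 2587 in basal and 4.40 to 50.5 in luminal libraries. Rank, listed as Tnfrsf11a, overlapped between genotypes in luminal cells. It had a median of 18.9 normalized counts (range 11.5 to 23.8) in virgin K8iΔRank and 14.2 (9.57 to 18.6) in virgin K8imTmG libraries, and 33.3 (27.0 to 41.1) and 49.3 (12.8 to 64.9) in parous mice. Depth ranged from 340445 to 3130419 reads. The libraries also fell into a group of 14 with Clec2d, a C-type lectin gene, at 65.6 to 199 and a group of 16 with it at 0.641 to 8.68, called Clec2d-high and Clec2d-low here. In Clec2d-high libraries the 10 most abundant genes took 5.92 to 12.7% of all counts, against 3.69 to 5.66% in Clec2d-low libraries. This split followed genotype in virgin cells of both lineages. Virgin luminal K8imTmG libraries were all low and virgin luminal K8iΔRank libraries all high, and in virgin basal cells it was the reverse. Parous luminal K8iΔRank libraries were all low and parous basal K8imTmG libraries all high. Both sides occurred in parous luminal K8imTmG (3 low, 2 high) and parous basal K8iΔRank (2 low, 2 high). Where a comparison sets low against high libraries, its groups cannot be told apart from this split. In bulk samples, fewer cells of a type and less RNA per cell cannot be told apart either.

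Ccnd1 and Ccnd2 divided the lineages in opposite directions. Ccnd1, coding for cyclin D1 (chromosome 7, 144483668 to 144493662, minus strand, GRCm39), had a median of 1172 normalized counts over 15 luminal libraries (range 854 to 2662) and of 148 over 15 basal libraries (range 43.5 to 500.5). Ccnd2, coding for cyclin D2 (chromosome 6, 127102125 to 127129156, minus strand), had a median of 9.33 in luminal (range 5.04 to 19.5) and 479 in basal libraries (range 179 to 1700.5). In neither gene did any luminal library reach the basal range. They were the only 2 of the 10 members with fully separate lineages, beside 9.57% of all genes, while 55.7% of all genes were called between lineages by limma.

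Within luminal cells, Ccnd1 was highest in parous K8imTmG mice. Mice 532, 534, 557 and 558 of that group had 2259, 2565, 2662 and 2371 normalized counts, and mouse 494 had 1239.9. The virgin K8imTmG mice 531, 533 and 538 had 1068, 1116 and 859.6. Every parous control library was thus above every virgin control library, with mouse 494 nearest to them. These 2 groups were without overlap in 16.95% of all genes. In K8iΔRank luminal cells the virgin mice 821, 822 and 825 had 867, 854 and 1172. The parous mice 787, 794, 798 and 830 had 1037, 957, 1558 and 1613, which overlaps both the virgin K8iΔRank and the parous K8imTmG values.

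In basal cells Ccnd1 was lowest in virgin K8imTmG mice, at 91.9, 95.1 and 43.5 for mice 531, 538 and 568. It was 379, 350.4, 111 and 148 in parous K8imTmG mice 532, 534, 557 and 558, all of them higher. Virgin K8iΔRank mice 820, 821, 822 and 825 had 75.0, 500.5, 293 and 97.7, a wide spread that covers most of the basal range. Parous K8iΔRank basal cells were as uneven, at 286, 67.7, 199 and 298 in mice 787, 794, 798 and 830.

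Ccnd2 was near the detection floor in luminal cells, where 3 reads were worth 1.14 to 16.3 normalized counts depending on the library. Virgin luminal K8imTmG libraries held 16.7, 16.3 and 11.0 and virgin K8iΔRank libraries 16.4, 5.77 and 7.93. Parous luminal K8imTmG libraries held 5.04, 5.60, 10.6, 6.39 and 8.65, the fourth of these (mouse 557) from 2 reads, and parous K8iΔRank libraries 6.85, 9.33, 19.5 and 19.4. These luminal groups overlapped except that all parous control libraries were below all virgin controls.

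Basal Ccnd2 was lowest in virgin K8imTmG mice and highest in virgin K8iΔRank mice. Mice 531, 538 and 568 of the former had 395, 215 and 201, and mice 820, 821, 822 and 825 of the latter had 691, 1700.5, 1016 and 752. The groups did not overlap, as in 28.25% of all genes. Parous mice lay across both, at 479, 1147.5, 179 and 355 in K8imTmG (mice 532, 534, 557, 558) and 1011, 196, 332 and 909 in K8iΔRank (mice 787, 794, 798, 830).

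Ccnd3, coding for cyclin D3 (chromosome 17, 47815767 to 47910624, plus strand), was detected in both lineages, with medians of 153 (luminal) and 115 (basal) and overlapping ranges. The group mean was highest in parous luminal K8iΔRank cells, at 175 ± 28.6 (SD, n = 4), and lowest in virgin basal K8imTmG cells, at 80.1 ± 23.1 (SD, n = 3). In virgin basal cells the K8imTmG libraries had 99.1, 86.8 and 54.3, and the K8iΔRank libraries 148, 159, 146 and 148. The latter were the tightest group of all for this gene.

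**Figure D1:**
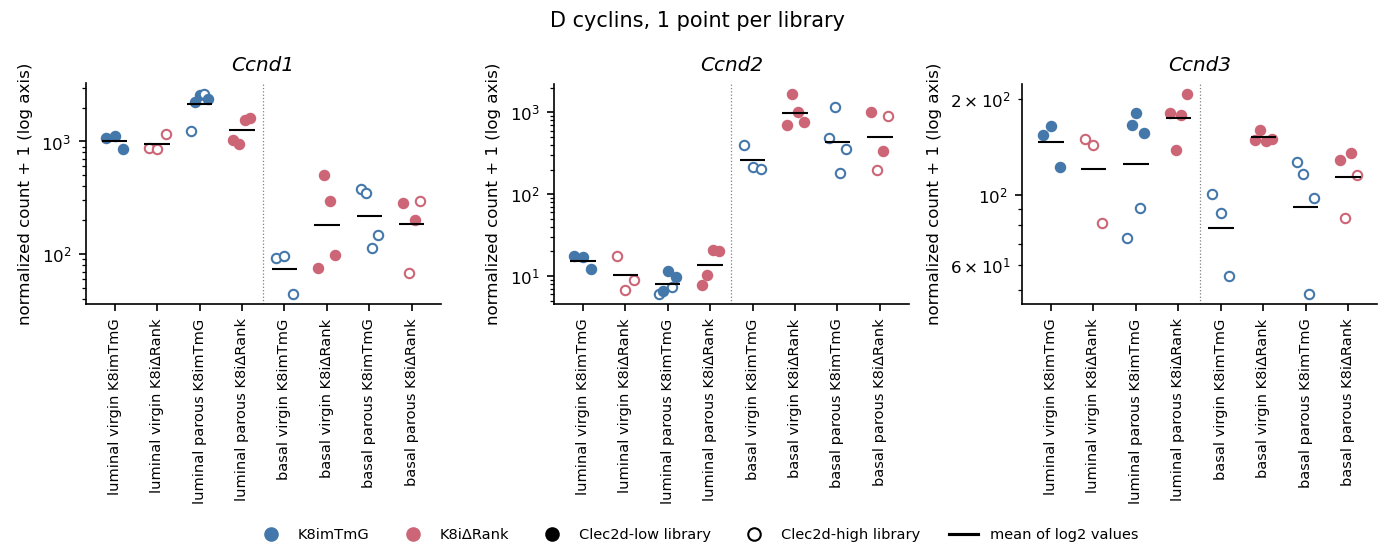
Normalized count plus 1 (log axis) of Ccnd1, Ccnd2 and Ccnd3 in the 8 groups, with 1 point per library, blue for K8imTmG and red for K8iΔRank, filled for Clec2d-low and open for Clec2d-high libraries, and a bar at the mean of the log2 values. The dotted line parts luminal from basal groups. Ccnd1 was 854 to 2662 in luminal and 43.5 to 500.5 in basal cells, Ccnd2 5.04 to 19.5 and 179 to 1700.5, and Ccnd3 overlapped.

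Of the 2 cyclin D kinases, Cdk6 had its higher level in luminal cells, and Cdk4 overlapped between lineages. Cdk4 (chromosome 10, 126895180 to 126903789, plus strand) had group means between 79.4 ± 22.9 (SD, n = 3) in virgin basal K8imTmG and 113 ± 38.1 (SD, n = 5) in parous luminal K8imTmG cells, and its range was 54.6 to 151 in luminal and 49.4 to 129.8 in basal libraries. Cdk6 (chromosome 5, 3391485 to 3581008, plus strand) had a median of 231 in luminal and 109 in basal libraries. It was highest in the parous luminal groups. The K8imTmG mice 494, 532, 534, 557 and 558 had 163, 425, 507, 329 and 431, against 214, 231 and 148 in the virgin mice 531, 533 and 538. In K8iΔRank luminal cells the parous mice had 401, 193, 309 and 359 and the virgin mice 162, 183 and 162, without overlap, as in 29.7% of all genes.

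Rb1, the brake on which these kinases act (chromosome 14, 73421113 to 73563507, minus strand), had a median of 172 in luminal and 34.7 in basal libraries. The virgin luminal K8imTmG mice 531, 533 and 538 had 120.5, 56.1 and 44.9. The parous luminal K8imTmG mice 494, 532, 534, 557 and 558 had 249, 190.3, 225, 224 and 280, all above the virgin controls. K8iΔRank luminal libraries had 145, 78.8 and 233 in virgin and 228, 139, 172 and 137 in parous mice, and these stages overlapped. Basal group means ran from 26.9 ± 2.88 (SD, n = 4) in virgin K8iΔRank to 49.3 ± 13.7 (SD, n = 4) in parous K8iΔRank cells.

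**Figure D2:**
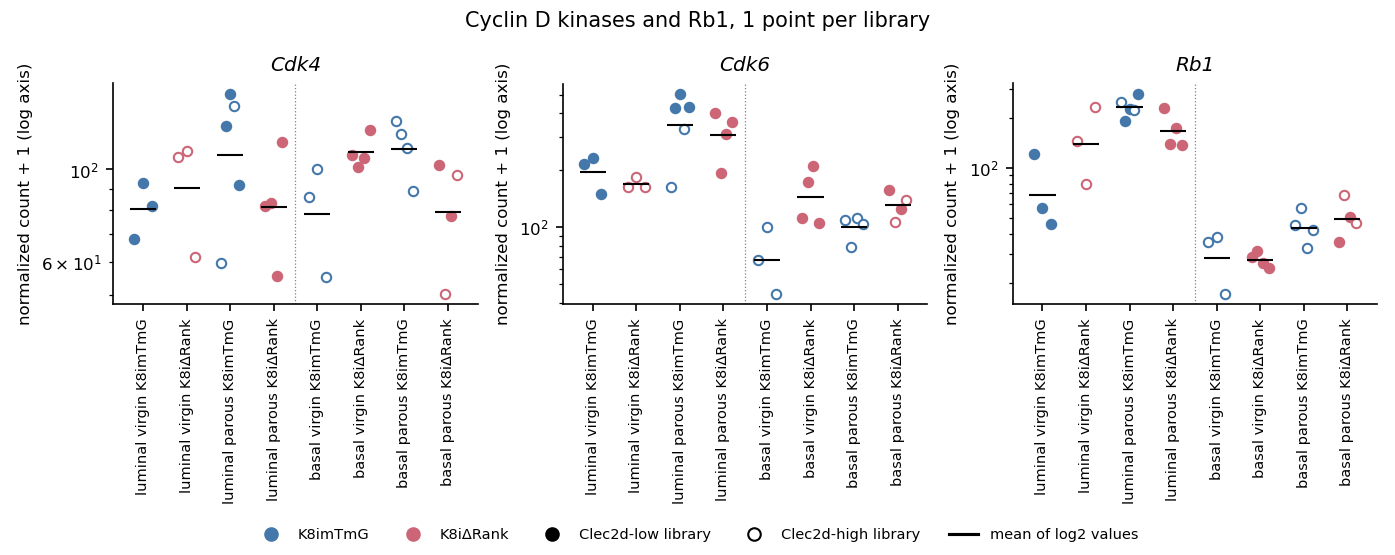
Normalized count plus 1 (log axis) of Cdk4, Cdk6 and Rb1 by group, with points, colours and bars for libraries, genotypes and means of log2 values, filled for Clec2d-low and open for Clec2d-high libraries. Cdk4 stayed between 49.4 and 151 in all 30 libraries, whereas Cdk6 and Rb1 had higher medians in luminal than in basal cells.

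Cdkn1a overlapped widely between lineages. This inhibitor (p21, chromosome 17, 29309936 to 29319701, plus strand) was highest in virgin luminal K8imTmG cells, at 299.9, 179.8 and 308 in mice 531, 533 and 538. It was 83.3, 88.4 and 59.4 in virgin luminal K8iΔRank cells, all lower. Parous luminal K8imTmG cells had 50.4, 89.6, 120.0, 32.0 and 104 (mice 494, 532, 534, 557, 558), also all below the virgin controls, and parous luminal K8iΔRank cells 115, 132, 103 and 136. In basal cells, virgin K8imTmG mice had 349, 269 and 70.6 and virgin K8iΔRank mice 265, 99.8, 96.2 and 305, both with a wide spread. Parous basal K8imTmG mice had 81.6, 77.6, 47.8 and 91.0, and parous basal K8iΔRank mice 787, 794, 798 and 830 had 299, 140.3, 297 and 147. These parous basal genotypes did not overlap.

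Cdkn1b (p27, chromosome 6, 134897364 to 134902476, plus strand) was highest in virgin basal K8imTmG cells, at 253, 409 and 299, against 85.4, 114, 152 and 145 in virgin basal K8iΔRank cells. In virgin luminal cells the order of the genotypes was the reverse, with 135, 147 and 96.4 in K8imTmG and 207, 302 and 201 in K8iΔRank mice. Both pairs were without overlap, as were 28.25% of all genes in the basal and 28.3% in the luminal pair. In both the higher group was the Clec2d-high one. Parous means ranged from 121 ± 12.7 (SD, n = 4) in luminal K8iΔRank to 208 ± 30.1 (SD, n = 4) in basal K8imTmG cells.

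Cdkn1c (p57, chromosome 7, 143012069 to 143014806, minus strand) was a basal transcript at low level. It did not exceed 8.36 in any luminal library and was 0 in luminal mouse 557, where 3 reads were worth 9.59 normalized counts. Virgin basal K8imTmG mice had 12.9, 20.7 and 10.9, and virgin basal K8iΔRank mice 36.9, 28.5, 52.8 and 38.7. The former came from 9, 5 and 2 reads and the latter from 32, 46, 78 and 36. The value of 10.9 in mouse 568 lay below the floor of that library, 16.3. Parous basal K8imTmG mice 532, 534, 557 and 558 had 10.5, 13.4, 0 and 29.6, and parous basal K8iΔRank mice 42.0, 31.9, 36.5 and 26.9. The basal library of mouse 557 held 450064 reads, and 3 of them were worth 11.9 normalized counts. Cdkn1c did not pass the filter on low values in the luminal comparisons of genotype and parity and was not tested there.

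Trp53 (p53, chromosome 11, 69469669 to 69482701, plus strand) was low throughout, with medians of 20.5 in luminal and 35.4 in basal libraries. The highest group was parous basal K8imTmG, at 79.5, 66.9, 75.6 and 37.5, and the lowest was parous luminal K8iΔRank, at 20.5, 18.7, 16.7 and 12.4. Parous basal K8iΔRank cells had 28.3, 35.1, 22.4 and 47.6, which overlaps the control values through mouse 558. Parous luminal K8imTmG cells had 16.8, 34.4, 46.8, 41.5 and 29.4, with only mouse 494 inside the K8iΔRank range.

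**Figure D3:**
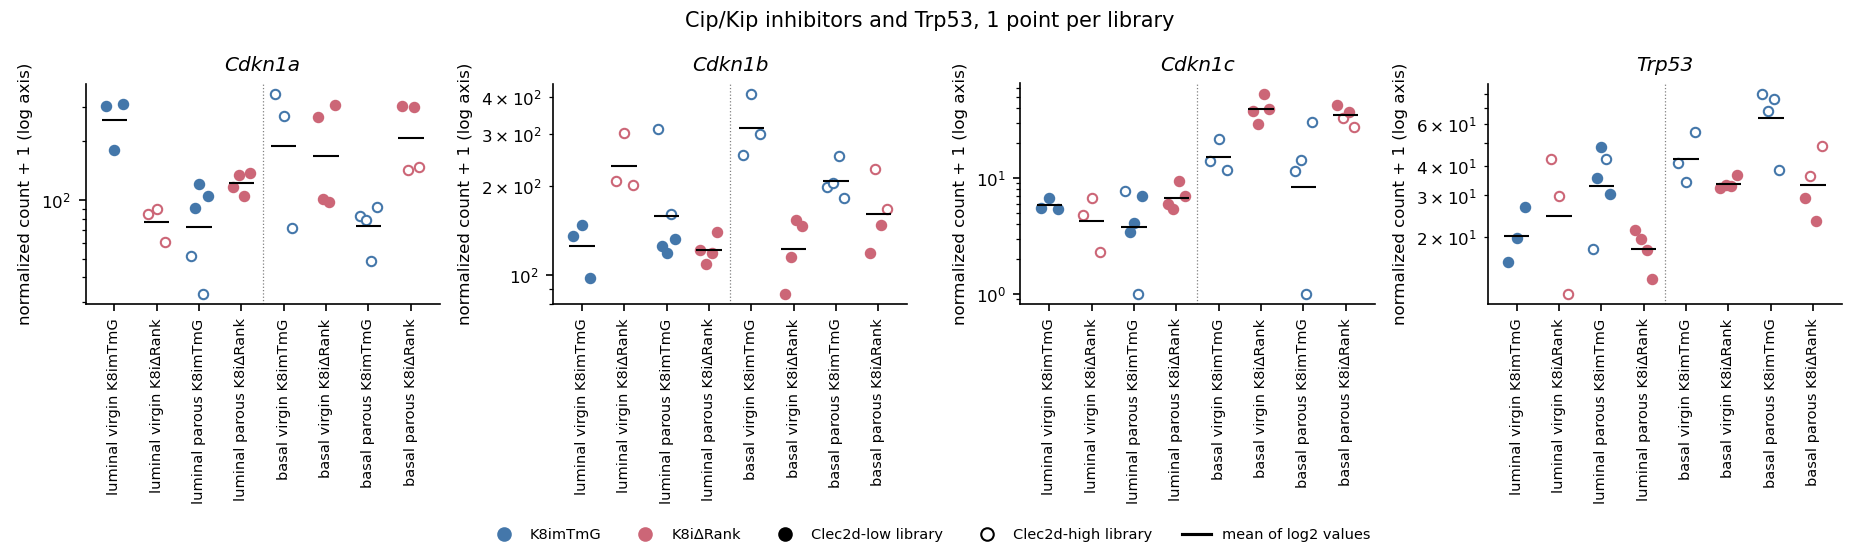
Normalized count plus 1 (log axis) of Cdkn1a, Cdkn1b, Cdkn1c and Trp53 by group, with 1 point per library, blue for K8imTmG and red for K8iΔRank, filled for Clec2d-low and open for Clec2d-high. Virgin luminal K8imTmG libraries had the highest mean Cdkn1a (262 ± 71.7, SD, n = 3), and Cdkn1c did not exceed 8.36 in luminal cells.

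Ordered by group mean, few neighbouring groups were separate. For Ccnd1 the 4 luminal groups came first and the 4 basal groups last, and for Ccnd2 the 4 basal groups came first. Only the step between lineages was free of overlap in these genes. For Cdkn1c the step from parous K8iΔRank (mean 34.3) to virgin K8imTmG basal cells (mean 14.8) was free of overlap. For Ccnd3, Cdk4, Cdk6, Cdkn1a, Cdkn1b, Rb1 and Trp53 every group overlapped the next one in order.

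To ask how the members differ between lineages, luminal and basal groups were compared by limma on log2(normalized count + 1), and a gene was called at a Benjamini-Hochberg adjusted p below 0.05 over all genes. Over all 30 libraries, 7 of 10 members were called, where 55.7% of 11133 genes tested were called. Ccnd1 was 8.33-fold higher in luminal cells (log2 difference 3.06, SE 0.25, adjusted p = 1.8e-11). Ccnd2 was 42.2-fold higher in basal cells (log2 difference -5.40, SE 0.26, adjusted p = 5.5e-17), a fold that rests on luminal values near the floor.

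Rb1 (log2 difference 1.94, SE 0.16, adjusted p = 1.8e-11) and Cdk6 (1.20, SE 0.16, adjusted p = 1.3e-07) were higher in luminal cells. Cdkn1c (-2.03, SE 0.35, adjusted p = 1.2e-05) and Trp53 (-0.84, SE 0.18, adjusted p = 0.00024) were higher in basal cells. All luminal Cdkn1c values were near the floor and below the filter of 10 normalized counts, at 8.36 or less. Cdkn1c thus entered the fit through basal libraries alone, and its adjusted p adds no support to the direction. Ccnd3 was 1.33-fold higher in luminal cells (log2 difference 0.41, SE 0.15, adjusted p = 0.024). That call was lost with the Clec2d side as a covariate (log2 difference 0.20, adjusted p = 0.26) and without the basal library of mouse 568 (0.34, adjusted p = 0.059). Cdk4 (-0.06, SE 0.15, adjusted p = 0.74), Cdkn1a (-0.37, SE 0.23, adjusted p = 0.17) and Cdkn1b (-0.30, SE 0.13, adjusted p = 0.061) were not called. With the mouse as a block for the animals that gave both lineages, Cdkn1b was called (-0.31, adjusted p = 0.047). It was also called without any 1 of 5 libraries, those of basal mice 531, 787 and 820 and luminal mice 494 and 822, with adjusted p from 0.0082 (without mouse 494) to 0.042. With the Clec2d side as a covariate Cdkn1a was called (-0.71, adjusted p = 0.0075), and likewise without basal mouse 568 (-0.55, adjusted p = 0.027).

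Within groups, Ccnd1 and Ccnd2 were called in all 4 lineage comparisons. The luminal Ccnd1 level was 13.7-fold the basal level in virgin K8imTmG (adjusted p = 4.9e-05), 5.23-fold in virgin K8iΔRank (adjusted p = 0.0095), 9.87-fold in parous K8imTmG (adjusted p = 4.1e-05) and 6.79-fold in parous K8iΔRank mice (adjusted p = 0.00026). The basal Ccnd2 level was 16.8-fold, 95.8-fold, 54.1-fold and 36.5-fold the luminal level in the same order, with adjusted p of 5.2e-05, 3.9e-06, 2.1e-06 and 1.0e-05. The number of members called was 5 of 10 in virgin K8imTmG, where 36.2% of all genes were called, 5 in virgin K8iΔRank (35.9%), 5 in parous K8imTmG (30.7%) and 8 in parous K8iΔRank mice (37.0%). In virgin mice each lineage was on another side of the Clec2d split, and the lineage cannot be told apart from it. Depth did not overlap between lineages in virgin mice of either genotype.

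Rb1 was higher in luminal cells by 2.33 on the log2 scale (SE 0.34, adjusted p = 0.00059) in virgin K8iΔRank, by 2.42 (SE 0.20, adjusted p = 3.1e-06) in parous K8imTmG and by 1.76 (SE 0.24, adjusted p = 0.00012) in parous K8iΔRank mice. In virgin K8imTmG mice it was 1.25 (SE 0.47, adjusted p = 0.061) and was called without luminal mouse 538 (1.54, adjusted p = 0.043). Cdk6 was higher in luminal cells by 1.54 (SE 0.34, adjusted p = 0.007) in virgin K8imTmG, 1.79 (SE 0.30, adjusted p = 0.00071) in parous K8imTmG and 1.23 (SE 0.24, adjusted p = 0.0016) in parous K8iΔRank mice. In virgin K8iΔRank mice the Cdk6 difference was 0.24 (SE 0.27, adjusted p = 0.52).

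Cdkn1c was higher in basal cells of K8iΔRank mice, by a log2 difference of -3.22 (SE 0.44, adjusted p = 0.00036) in virgin and -2.37 (SE 0.27, adjusted p = 3.0e-05) in parous mice. In each lineage comparison Cdkn1c passed the filter through basal libraries alone, with luminal values near the floor, at 8.36 or less. In K8imTmG mice it was -1.39 (SE 0.51, adjusted p = 0.06) in virgin and -1.16 (SE 0.93, adjusted p = 0.38) in parous mice. The first was called with the mouse as a block (-1.42, adjusted p = 0.044) and without basal mouse 568 (-1.57, adjusted p = 0.038), and the second without basal mouse 557, whose count was 0 (-2.19, adjusted p = 0.037). Cdkn1b, the p27 inhibitor, gave opposite differences in the virgin genotypes, -1.33 in K8imTmG (SE 0.27, adjusted p = 0.0049) and 0.93 in K8iΔRank (SE 0.26, adjusted p = 0.02). The second was lost without luminal mouse 822 (0.75, adjusted p = 0.075). In parous mice Cdkn1b was -0.40 in both genotypes and not called, with an adjusted p of 0.296 in K8imTmG and 0.157 in K8iΔRank, although it was called in K8imTmG without luminal mouse 494 (-0.64, adjusted p = 0.014).

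The remaining lineage calls were close to the threshold. Trp53 was higher in basal cells of parous mice, at -0.94 (SE 0.33, adjusted p = 0.0495) in K8imTmG and -0.89 (SE 0.27, adjusted p = 0.023) in K8iΔRank mice. The call held in 3 of 9 fits that each left out 1 library in the former, those without luminal mice 534 or 557 or basal mouse 558, and in 5 of 8 in the latter, where it was lost without luminal mouse 830 or basal mice 794 or 830. In virgin K8imTmG mice Trp53 was -1.07 (SE 0.38, adjusted p = 0.054), called with the mouse as a block (-1.05, adjusted p = 0.047) and without luminal mouse 538 (-1.27, adjusted p = 0.042). Ccnd3 was higher in luminal cells by 0.89 (SE 0.29, adjusted p = 0.04) in virgin K8imTmG and by 0.61 (SE 0.20, adjusted p = 0.033) in parous K8iΔRank mice, and the call held in 2 of 6 and 3 of 8 fits without 1 library. These were the fits without luminal mouse 538 or basal mouse 531 in the former, and without luminal mouse 794 or basal mice 787 or 798 in the latter. Cdkn1a was higher in basal cells of parous K8iΔRank mice (-0.77, SE 0.27, adjusted p = 0.043), and was not called with the mouse as a block (adjusted p = 0.0502) or in 6 of 8 fits without 1 library, the exceptions being basal mice 794 and 830. In virgin K8iΔRank mice the Cdkn1a difference was -1.13 (SE 0.43, adjusted p = 0.064), called without basal mouse 821 (-1.37, adjusted p = 0.025) or basal mouse 822 (-1.39, adjusted p = 0.027).

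**Figure D4:**
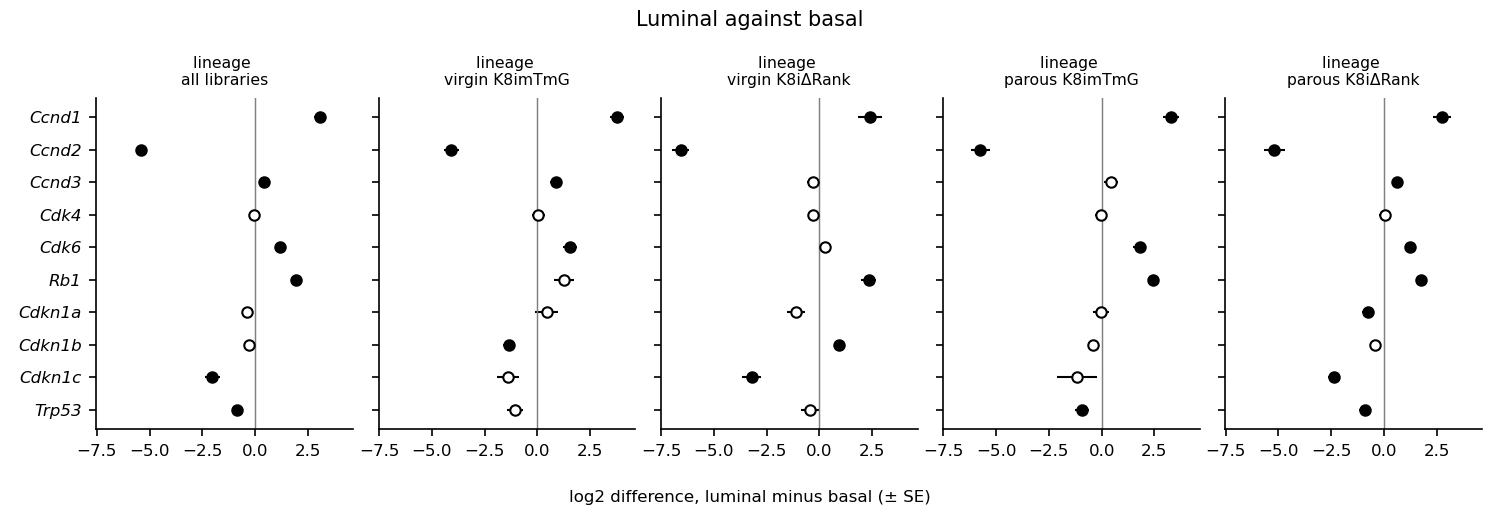
Log2 difference of luminal minus basal cells (± SE, x axis) for the 10 members in all 30 libraries and in each of the 4 stage and genotype groups, filled where limma's adjusted p was below 0.05. Ccnd1 lay right of 0 and Ccnd2 left of 0 in all 5 panels, and Cdkn1b was -1.33 in virgin K8imTmG and 0.93 in virgin K8iΔRank mice.

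To ask what deletion of luminal Rank changes, K8iΔRank was compared with K8imTmG at each stage. In virgin luminal cells 1 of 9 members tested was called, where 0.984% of all genes were called. Cdkn1a fell by 1.74 on the log2 scale (SE 0.29, adjusted p = 0.035), from 262 ± 71.7 (SD, n = 3) to 77.1 ± 15.5 (SD, n = 3). The call held in 1 of 6 fits that left out 1 library, the one without K8imTmG mouse 531 (adjusted p = 0.036), with adjusted p up to 0.14 in the others. Cdkn1b (0.90, SE 0.27, adjusted p = 0.10) and Ccnd1 (-0.08, SE 0.25, adjusted p = 0.88) were not called. All virgin luminal K8iΔRank libraries were Clec2d-high and all controls Clec2d-low, so that genotype and split cannot be told apart here. Depth did not overlap either, at 814455 to 1158036 reads in K8iΔRank and 1862812 to 2422876 in control libraries. Basal markers summed to 98.1 to 312 and 74.3 to 86.1 in the same order, without overlap, while luminal and fibroblast markers overlapped. Their part was not tested.

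In virgin basal cells, which by design keep Rank, 4 of 10 members were called, where 8.99% of all genes were called. Ccnd2 was 3.77-fold higher in K8iΔRank mice (log2 difference 1.91, SE 0.35, adjusted p = 0.014), Ccnd3 1.92-fold higher (0.94, SE 0.25, adjusted p = 0.043) and Cdkn1c 2.57-fold higher (1.36, SE 0.36, adjusted p = 0.044). The Cdkn1c values rest on 2 to 9 reads per library in K8imTmG and 32 to 78 in K8iΔRank mice. Cdkn1b fell by 1.37 (SE 0.27, adjusted p = 0.018). Cdk6 (1.10, SE 0.34, adjusted p = 0.071) and Ccnd1 (1.31, SE 0.61, adjusted p = 0.18) were not called.

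Ccnd2 and Cdkn1b in virgin basal cells lost their calls without K8imTmG mouse 538 (adjusted p = 0.0587 for Ccnd2 and 0.0638 for Cdkn1b) or mouse 568 (adjusted p = 0.0575 and 0.0539), and held in the other 5 of 7 fits. Ccnd3 was called in 1 of 7 such fits, without K8imTmG mouse 531, and Cdkn1c in 1 of 7, without K8iΔRank mouse 821. edgeR and DESeq2 on the recovered reads called Ccnd2 and Cdkn1b but not Ccnd3 or Cdkn1c, where 8.2% and 10.95% of all genes were called. When values were scaled to library totals the median of all genes moved from 0.06 to 0.45 in this comparison, and 21.4% of all genes were called. Cdk4 (0.88, adjusted p = 0.039) and Cdk6 (1.49, adjusted p = 0.021) were then also called by limma. Controls were all Clec2d-high and K8iΔRank libraries all Clec2d-low, and the genotype cannot be told apart from the split. Depth did not overlap either, at 340445 to 1172427 reads in controls and 1200781 to 2104379 in K8iΔRank libraries. Of the markers of other cell types, the immune marker Lyz2 and the luminal marker Esr1 were called lower in K8iΔRank mice. The 4 immune markers had a median log2 difference of -1.54 beside 0.06 for all genes and summed to 43.4 to 129 against 81.5 to 169, and no endothelial marker was called (sums 178 to 755 and 152 to 382). Their part in these differences was not tested.

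In parous luminal cells none of 9 members was called by limma, where 0.0991% of all genes were called. An unadjusted p below 0.05 was found for 3 members and for 2009 of all 10090 genes tested. Ccnd1 was 1291 ± 342 (SD, n = 4) in K8iΔRank and 2219 ± 569.9 (SD, n = 5) in K8imTmG cells (log2 difference -0.77, SE 0.28, adjusted p = 0.17). Trp53 was 17.1 ± 3.48 (SD, n = 4) and 33.8 ± 11.6 (SD, n = 5) (-0.89, SE 0.30, adjusted p = 0.16). DESeq2 on the recovered reads called both, at an adjusted p of 0.0495 for Ccnd1 and 0.0345 for Trp53, and limma with array quality weights called both (0.0225 and 0.021). These 2 settings called 6.06% and 11.4% of all genes. Among Clec2d-low libraries alone, 3 K8imTmG against 4 K8iΔRank, limma gave -0.93 (SE 0.20, adjusted p = 0.062) for Ccnd1 and -1.06 (SE 0.25, adjusted p = 0.065) for Trp53. edgeR called no member.

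In parous basal cells 1 of 10 members was called, where 0.906% of all genes were called. Cdkn1a was 221 ± 89.3 (SD, n = 4) in K8iΔRank and 74.5 ± 18.7 (SD, n = 4) in K8imTmG cells, a 2.83-fold difference (log2 1.50, SE 0.30, adjusted p = 0.044). Among Clec2d-high libraries alone, with 2 K8iΔRank against 4 K8imTmG, it was 0.98 (SE 0.28, adjusted p = 0.31). The call held in 2 of 8 fits without 1 library, those without K8iΔRank mouse 794 or K8imTmG mouse 558, and was lost with adjusted p of 0.0557 to 0.145 in the others. Depth did not overlap between these genotypes, at 1844364 to 2996649 reads in K8iΔRank and 450064 to 1365008 in K8imTmG libraries, and genotype cannot be told apart from it. Cdkn1a rested on 176 to 698 and 12 to 80 reads in the same order. Basal markers summed to 9923 to 10905 in K8iΔRank and 12499 to 14256 in K8imTmG libraries and luminal markers to 903 to 1233 and 601 to 852, both without overlap, and their part was not tested. Trp53 was 33.4 ± 10.8 against 64.9 ± 19.0 (-0.94, SE 0.30, adjusted p = 0.11).

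To ask what a completed pregnancy leaves behind, parous cells were compared with virgin cells of the same lineage and genotype. In K8imTmG mice parity included nursing, and in K8iΔRank mice lactation failed. In luminal K8imTmG cells 1 of 9 members was called, where 2.20% of all genes were called. Rb1 was 3.41-fold higher in parous mice (log2 difference 1.77, SE 0.31, adjusted p = 0.029). The call held in 3 of 8 fits without 1 library, those without parous mouse 494 or 534 or virgin mouse 531. Luminal markers summed to 13340 to 18166 in virgin and 4140.1 to 11413 in parous libraries, without overlap, with a median log2 difference of -1.04 and Krt19 called lower, and their part was not tested. Ccnd1 was 1.09 (SE 0.30, adjusted p = 0.085), Cdk6 0.83 (SE 0.36, adjusted p = 0.21) and Cdkn1a -1.83 (SE 0.42, adjusted p = 0.057). Without parous mouse 494, a Clec2d-high library, all 3 were called, with Ccnd1 at 1.29 (adjusted p = 0.02), Cdk6 at 1.10 (adjusted p = 0.03) and Cdkn1a at -1.71 (adjusted p = 0.047). The share of all genes called in that fit is not given here. It rose from 2.20% to 12.8% when both Clec2d-high libraries were left out.

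Virgin luminal K8imTmG libraries were all Clec2d-low, and the 3 parous Clec2d-low libraries allowed the comparison within 1 side of the split. There 4 of 9 members were called, where 12.8% of all genes were called. Ccnd1 was 1.25 higher in parous mice (SE 0.17, adjusted p = 0.013), Cdk6 1.22 (SE 0.21, adjusted p = 0.017) and Rb1 1.75 (SE 0.36, adjusted p = 0.023), and Cdkn1a fell by 1.29 (SE 0.25, adjusted p = 0.021). Trp53 was 0.87 (SE 0.30, adjusted p = 0.089). Ccnd1, Cdk6 and Rb1 were thus higher and Cdkn1a lower in these 3 parous than in the 3 virgin libraries. Cdk4, the other cyclin D kinase, was not called and overlapped, at 90.9 to 151 in parous and 67.3 to 91.8 in virgin libraries.

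In luminal K8iΔRank cells 2 of 9 members were called, where 16.0% of all genes were called. Cdk6 was 1.80-fold higher in parous mice (log2 difference 0.85, SE 0.25, adjusted p = 0.039), and Cdkn1b fell by 0.94 (SE 0.20, adjusted p = 0.014). Cdkn1a was 0.66 (SE 0.21, adjusted p = 0.053), Ccnd1 0.40 (SE 0.24, adjusted p = 0.27) and Rb1 0.25 (SE 0.33, adjusted p = 0.63). The Cdk6 call held in 1 of 7 fits without 1 library, the one without parous mouse 794, and the Cdkn1b call in 7 of 7. Cdkn1a was called without virgin mouse 822 (0.77, adjusted p = 0.046). Scaled to library totals, where the median of all genes moved from 0.03 to 0.30 and 24.6% of all genes were called, Cdkn1a (0.94, adjusted p = 0.0093) and Ccnd3 (0.81, adjusted p = 0.034) were called as well. Virgin libraries were all Clec2d-high and parous libraries all Clec2d-low, and parity cannot be told apart from the split. Depth did not overlap either, at 814455 to 1158036 reads in virgin and 2214318 to 3130419 in parous libraries. Fibroblast markers summed to 713 to 852 in virgin and 173 to 416 in parous libraries and basal markers to 98.1 to 312 and 60.9 to 96.3, both without overlap. Dcn (fibroblast), Acta2 (basal), Esr1 and Foxa1 (luminal) were called lower in parous mice. Their part was not tested.

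In basal cells no member was called between parous and virgin mice by limma in either genotype, where 0% of all genes were called. In K8imTmG 969 genes had an unadjusted p below 0.05, 8 were called by edgeR and 40 by DESeq2, and in K8iΔRank these numbers were 1036, 0 and 89. All basal K8imTmG libraries were Clec2d-high. Ccnd1 was 247 ± 137 (SD, n = 4) in parous and 76.8 ± 28.9 (SD, n = 3) in virgin K8imTmG cells (log2 difference 1.56, SE 0.42, adjusted p = 0.325), and Cdkn1a 74.5 ± 18.7 and 229 ± 143 (-1.36, SE 0.44, adjusted p = 0.405). DESeq2 called both, Ccnd1 at an adjusted p of 0.0306 and Cdkn1a at 0.0298. In K8iΔRank cells the lowest adjusted p among the members was that of Rb1 (0.82, SE 0.24, adjusted p = 0.42).

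**Figure D5:**
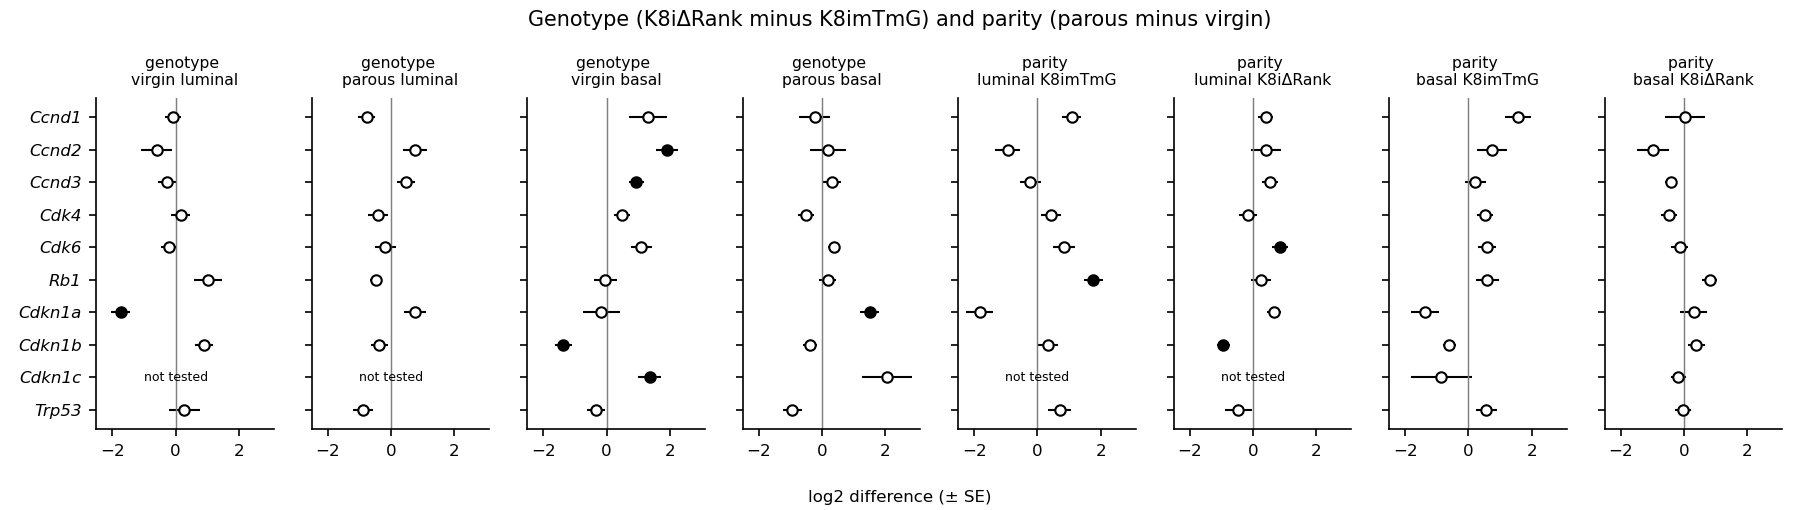
Log2 difference (± SE, x axis) of the 10 members for K8iΔRank minus K8imTmG in 4 panels and for parous minus virgin in 4 panels, filled where limma's adjusted p was below 0.05. Cdkn1a was -1.74 in virgin luminal and 1.50 in parous basal cells for genotype, and Rb1 was 1.77 for parity in luminal K8imTmG cells. Cdkn1c was not tested in luminal cells.

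Whether the genotype difference itself differed between stages was tested as an interaction. Nursing history also differed between the parous genotypes and is part of this contrast. In luminal cells 3 of 9 members were called, where 12.9% of all genes were called. The genotype difference of Cdkn1a was higher by 2.49 in parous than in virgin mice (SE 0.51, adjusted p = 0.012), and it held in 15 of 15 fits without 1 library. Those of Cdkn1b (-1.27, SE 0.40, adjusted p = 0.048) and Rb1 (-1.52, SE 0.48, adjusted p = 0.0499) were lower in parous mice, each called in 4 of 15 such fits. For Cdkn1b these left out parous K8imTmG mouse 494, 532, 534 or 558, and for Rb1 parous mouse 787 or 532 or virgin mouse 822 or 531. With the Clec2d side as a covariate, 0 members were called, where 0.0487% of all genes were called. In that fit the side was estimated from parous K8imTmG libraries alone (3 low, 2 high). It gave 0.60 (SE 0.51, adjusted p = 0.55) for Cdkn1a, -0.10 (SE 0.50, adjusted p = 0.93) for Cdkn1b and -1.46 (SE 0.76, adjusted p = 0.31) for Rb1. Trp53 was -1.16 (SE 0.58, adjusted p = 0.17), and was called without virgin K8iΔRank mouse 825 (-1.70, adjusted p = 0.047). In basal cells no member was called by limma, where 0% of all genes were called, 1082 had an unadjusted p below 0.05, and DESeq2 called 10 and edgeR 0.

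The 2 groups with libraries on both sides of the split gave the members on each side in mice of 1 stage and genotype. In parous luminal K8imTmG cells, Ccnd3 was 155 to 179 in the 3 Clec2d-low and 72.2 to 89.5 in the 2 Clec2d-high libraries, Cdk6 425 to 507 and 163 to 329, and Cdkn1a 89.6 to 120.0 and 32.0 to 50.4. Cdkn1b went the other way, at 117 to 131 and 160 to 309. In parous basal K8iΔRank cells, Cdkn1a was 297 to 299 in the 2 Clec2d-low and 140.3 to 147 in the 2 Clec2d-high libraries, Ccnd3 127 to 134 and 83.7 to 114, and Cdkn1b 118 to 146 and 166 to 226. In the same order Cdkn1c was 36.5 to 42.0 and 26.9 to 31.9, and Trp53 22.4 to 28.3 and 35.1 to 47.6. Ccnd3 and Cdkn1a were lower and Cdkn1b higher on the Clec2d-high side in both groups. With sides this small, 4 of 10 and 5 of 10 members were without overlap, beside 53.5% and 59.7% of all genes. Members were thus without overlap no more often than genes at large.

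Other genes of the G1/S step and of the p53 response were counted from fixed lists. Of 41 partners of cyclin D and Rb (E2F factors, INK4 inhibitors, cyclin E and A, ubiquitin ligase subunits and the DREAM complex), 31 were in the table and 29 to 31 were tested in each comparison. Absent from the table, and so not tested, were Ccne1 and Ccne2 (cyclin E), Cdkn2a, Cdkn2b, Cdkn3, E2f2, E2f8, Skp2, Lin37 and Lin54. Over all libraries 7 of 31 had a higher level in luminal cells and 2 in basal cells, where 55.7% of all genes were called, with a median log2 difference of 0.03 beside 0.04 for all genes. They were led by Cdkn2d, the INK4 inhibitor p19 (-1.31, SE 0.21, adjusted p = 4.0e-06), Cul1, the SCF ligase scaffold (0.54, SE 0.10, adjusted p = 3.5e-05), and Rbl1, the pocket protein p107 (1.34, SE 0.38, adjusted p = 0.0039). Rbbp4 was -0.81 in virgin K8imTmG (SE 0.21, adjusted p = 0.014) and 0.86 in virgin K8iΔRank mice (SE 0.20, adjusted p = 0.0068), higher in both on the Clec2d-high side. In the 4 single groups 2 higher and 3 lower (virgin K8imTmG), 2 and 1 (virgin K8iΔRank), 2 and 0 (parous K8imTmG) and 1 and 4 (parous K8iΔRank) were called, of 29 to 31 tested, where 36.2%, 35.9%, 30.7% and 37.0% of all genes were called.

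In genotype and parity comparisons Rbbp4 was the only one called of the partners tested. This histone-binding subunit of the DREAM complex fell by 0.91 in virgin basal K8iΔRank cells (SE 0.19, adjusted p = 0.022) and by 0.79 in luminal K8iΔRank cells with parity (SE 0.18, adjusted p = 0.016). It was 1 of 30 partners tested in each, where 8.99% and 16.0% of all genes were called. The luminal interaction called 3 of 30 partners, where 12.9% of all genes were called. They were Cks1b, a cofactor of cyclin-dependent kinases (-2.28, SE 0.52, adjusted p = 0.017), Rbbp4 (-1.23, SE 0.31, adjusted p = 0.023) and Tfdp1, the dimer partner of E2F (-1.65, SE 0.43, adjusted p = 0.026). With the Clec2d side as a covariate, where 0.0487% of all genes were called, none of the 3 was called, at -1.89 (adjusted p = 0.22) for Cks1b, -0.27 (adjusted p = 0.70) for Rbbp4 and -2.17 (adjusted p = 0.11) for Tfdp1. The median of the 30 partners tested there was -0.78, beside 0.08 for all genes. In parous luminal cells their median genotype difference was -0.54 beside 0.04, and in luminal K8imTmG cells their median parity difference was 0.61 beside -0.01. None was called in either, where 0.0991% and 2.20% of all genes were called.

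Of 30 p53 response genes, 26 to 28 were tested. Between lineages over all libraries 7 of 28 had their higher level in luminal cells and 9 in basal cells, where 55.7% of all genes were called, with a median log2 difference of -0.04 beside 0.04 for all genes. They were led by Phlda3, an Akt inhibitor (-4.98, SE 0.18, adjusted p = 6.8e-20), Perp, a desmosomal protein (-2.24, SE 0.13, adjusted p = 9.3e-15), and Fas, a death receptor (-1.74, SE 0.20, adjusted p = 9.4e-09), all higher in basal cells.

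With parity in luminal K8imTmG cells, where Cdkn1a was -1.83, 1 of 27 p53 response genes rose and 3 fell, where 2.20% of all genes were called. Trp53inp1, a p53 cofactor in stress, fell by 2.56 (SE 0.41, adjusted p = 0.024), Zmat3, an RNA-binding protein, fell by 1.36 (SE 0.24, adjusted p = 0.029), and Fas rose by 2.20 (SE 0.41, adjusted p = 0.035). In the luminal interaction 3 of 27 were called higher and 2 lower, where 12.9% of all genes were called. Among them Zmat3 (1.79, SE 0.35, adjusted p = 0.011) and Trp53inp1 (2.68, SE 0.53, adjusted p = 0.011) were called in the direction of Cdkn1a, and Bax, a pro-apoptotic Bcl2 family gene (-4.21, SE 1.04, adjusted p = 0.022), in the other. With the Clec2d side as a covariate, where 0.0487% of all genes were called, the calls of these 3 genes were lost, at 1.38 (adjusted p = 0.17) for Zmat3, 1.89 (adjusted p = 0.21) for Trp53inp1 and 0.30 (SE 0.72, adjusted p = 0.86) for Bax. In parous basal cells Trp53inp1 rose by 1.41 in K8iΔRank mice (SE 0.28, adjusted p = 0.044), the only gene of the list called there, beside the Cdkn1a call of the same comparison. It was 1 of 28 tested, where 0.906% of all genes were called. In luminal K8iΔRank cells 0 of 27 rose and 6 fell with parity, where 16.0% of all genes were called, among them Bax (-3.23, SE 0.30, adjusted p = 0.00054), Rps27l, a ribosomal protein paralog (-1.49, SE 0.21, adjusted p = 0.0031), and Btg2, an antiproliferative gene (-1.24, SE 0.20, adjusted p = 0.0039). Bax and Rps27l also fell in virgin basal K8iΔRank cells, by 3.52 (SE 0.44, adjusted p = 0.0058) and 1.74 (SE 0.24, adjusted p = 0.0062), and Bax rose by 2.79 in virgin luminal K8iΔRank cells (SE 0.37, adjusted p = 0.022). In virgin basal cells 0 of 28 rose and 3 fell, where 8.99% of all genes were called. In virgin luminal cells 1 of 26 rose and 0 fell, where 0.984% were called. For Bax and Rps27l, and for Btg2, the higher group in each of these 2-group comparisons was the Clec2d-high one, and the part of the split was not tested. In parous luminal cells no p53 response gene was called between genotypes, and in basal cells none with parity, where 0.0991% and 0% of all genes were called.

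After centring each gene on its lineage, the genes most like each cyclin over the 30 libraries were found among 5221 genes, as a description. Ccnd1 was most like Mcm6, a subunit of the replicative helicase (r = 0.81), Tcof1, which acts in ribosome biogenesis (r = 0.79), and Rnpep, an aminopeptidase (r = 0.77). For Ccnd2 these were Fbln2, an extracellular matrix protein (r = 0.83), Mlec, a lectin of the endoplasmic reticulum (r = 0.80), and Rcn1, a calcium-binding protein there (r = 0.78). For Ccnd3 they were Vangl2, a planar polarity protein (r = 0.84), Pdia4, a disulfide isomerase (r = 0.83), and Septin11, a cytoskeletal GTPase (r = 0.82). Among the members, Ccnd2 and Ccnd3 went together (r = 0.70), as did Ccnd1 and Cdk6 (r = 0.67), and Cdkn1b ran against Ccnd3 (r = -0.65) and Ccnd2 (r = -0.59). These libraries share the Clec2d split, depth and, for 13 mice, the animal, and the values describe the libraries only.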

How the data were processed

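Per the labels, luminal and basal cells were sequenced with a 3′ mRNA kit. The authors removed UMI duplicates with UMI-tools, aligned to GRCm39 with Bowtie2 and deposited counts divided by DESeq2 size factors, a normalized signal per gene. In each library 100% of values were whole multiples of 1 step (within 0.01 of a read), so reads were recovered, and 3 reads were taken as the floor. Groups followed the labels. limma 3.58.1 (R 4.3.3) was run with a mean-variance trend on log2(normalized count + 1), keeping genes that passed 10 in 25% or more of the fitted libraries, with 2 groups per fit. Alternatives were pseudocounts, filters, quantile normalization, array weights, wider fits, 1 library left out, 1 side of the Clec2d split (set at 20), library totals, edgeR 4.0.16 and DESeq2 1.42.0 on recovered reads. Tests were tried on simulated data. Lineage fits had the mouse as a block as an alternative because 13 mice gave both lineages, and limma's within-mouse correlation was 0.062 over all libraries, 0.151 in virgin K8imTmG, -0.020 in virgin K8iΔRank, 0.222 in parous K8imTmG and -0.084 in parous K8iΔRank mice. No replicate pair was the same library (lowest chi-square per degree of freedom 2.67 in 43 pairs). All members were named, and list genes by the lowest 3 adjusted p per comparison. The members, lists and rules were chosen with earlier results of these data known. Coordinates are those of GENCODE vM39. Analyses used Python 3.11.15 with numpy 2.4.6, pandas 2.3.3 and matplotlib 3.10.9.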

Additional observations from a re-analysis of the deposited data

Results flagged for a closer look

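Of 50 sets of 4 or 5 libraries checked, 10 genes in 5 groups, 2 held a library far from the others, and chance alone gives about 5%. Ccnd1 in parous luminal K8imTmG cells was 1239.9 in mouse 494, below the other 4 mice. Ccnd3 in virgin basal K8iΔRank cells was 158.8 in mouse 821, above a tight group of 3.

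The genotype difference differed between stages in luminal cells for Cdkn1a (interaction 2.49 on the log2 scale), Cdkn1b (-1.27) and Rb1 (-1.52) by limma. None of the 3 was called with the Clec2d side as a covariate, where 0.0487% of all genes were called.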

How the results depend on the processing

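Counts are of members called, and the share of all genes called under the same setting is in brackets. In the luminal interaction 0 were called with the Clec2d side as a covariate (0.0487%) and 1 with library totals (14.7%), a scaling chosen after seeing the data. Parous basal genotype gave 0 in Clec2d-high libraries alone (0%), in one fit of the lineage (1.6%) and without a filter (0.108%), and 2 with array weights (24.3%). Parous luminal genotype gave 2 by DESeq2 (6.06%) and with array weights (11.4%). Virgin basal genotype gave 2 by DESeq2 (10.95%) and by edgeR (8.2%), and 6 with array weights (12.6%) and with library totals (21.4%). Virgin luminal genotype gave 3 with array weights (24.98%). Parity in basal K8imTmG gave 2 by DESeq2 (0.38%). Parity in luminal K8iΔRank gave 0 in one fit (2.2%) and 4 with library totals (24.6%). Parity in luminal K8imTmG gave 4 in Clec2d-low libraries alone (12.8%), and 3 by DESeq2 (10.3%) and in one fit (7.72%). It gave 6 with array weights (38.85%), and 2 by edgeR (2.7%) and at a mean of at least 50 (3.86%). The cause was not tested.

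Leaving out 1 library gave 1 to 3 in the luminal and 0 in the basal interaction. For fits without 1 library the shares of all genes called are not given here. Genotype gave 0 to 1 in parous basal, 0 in parous luminal, 0 to 3 in virgin basal and 0 to 1 in virgin luminal cells. Parity gave 1 to 2 in luminal K8iΔRank, 0 to 4 in luminal K8imTmG and 0 in basal cells. Lineage gave 7 to 8 in all libraries, 5 to 7 in parous K8iΔRank, 4 to 5 in parous K8imTmG, 4 to 6 in virgin K8iΔRank and 4 to 7 in virgin K8imTmG mice. With the mouse as replicate block the lineage comparisons called 8 members in all libraries (56.8% of all genes), 7 in virgin K8imTmG (39.6%) and 5 in virgin K8iΔRank mice (35.6%). They called 5 in parous K8imTmG (37.2%) and 7 in parous K8iΔRank mice (35.0%), and the block changed no call beyond those given in the report. No paired analysis was possible for genotype or parity because those groups share no mouse. No called member changed sign, where differences within 1 SE of 0 were given no direction. For members called here, other settings that left out no library gave 29 losses of a call. Of 103 member tests that were not called, 28 were called under 1 or more of those settings. Depth limits Ccnd2 and Cdkn1c in luminal cells, which lie near 3 reads in the shallowest libraries. It also limits Cdkn1c in basal K8imTmG cells, with 2 to 9 reads in virgin and 0 to 26 in parous libraries.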

Other observations

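Genes of DNA replication and mitosis, which act after the cyclin D step, were counted from a list of 17, of which 15 were in the table. Over all libraries 4 were higher in luminal cells and 1 in basal cells (Aurka, Mcm2, Mcm6, Pcna and Mki67 were called by limma), where 55.7% of all genes were called, with a median log2 difference of 0.65 beside 0.04 for all genes. In virgin basal cells 2 of 14 genes tested were called, where 8.99% of all genes were called. Mcm3 and Mcm5, subunits of the replicative helicase, were higher in K8iΔRank mice, and the median of the 14 genes was 1.88 beside 0.06. Controls there were all Clec2d-high and shallower, and K8iΔRank libraries all Clec2d-low, so that genotype cannot be told apart from split or depth. In luminal K8imTmG cells the median parity difference was 1.41 beside -0.01, and in parous luminal cells the median genotype difference was -0.72 beside 0.04. In either 0 genes of the list were called, where 2.20% and 0.0991% of all genes were called. Their summed normalized count was 454 to 3532 in parous luminal K8imTmG and 309 to 1789 in parous luminal K8iΔRank libraries.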
